A study of Mus musculus with 16 samples.

Results

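The genes described here encode the proteins of the mitochondrial ribosome, taken as every gene symbol in the count files that begins with Mrpl or Mrps followed by a digit. Of 24421 genes, 77 met this rule, 50 for the large subunit, 26 for the small subunit, and Mrps36, which carries a ribosomal name but is now counted to the 2-oxoglutarate dehydrogenase complex. Mrps30 was counted to the large subunit, where its protein sits despite its name. All 77 passed the filter on low counts and were among the 9642 genes tested. The counts came from bulk RNA-seq of 16 libraries of live Kaede+ cells, positive for CD45 and CD11b and negative for TER119 and NK1.1, sorted from subcutaneous MC38-Ova tumours, a mouse colon adenocarcinoma line carrying ovalbumin, grown in adult Kaede transgenic C57BL/6 mice. Kaede is a fluorescent protein that light turns from green to red, so after the tumour was lit, red cells (Kaede-red) had been in it at that moment and green cells (Kaede-green) had entered since. The 4 groups were green and red cells at 24h (MG24 and MR24) and at 72h (MG72 and MR72) after photoconversion, 4 libraries each, and all came from mice with no antibody treatment (the label is Control). The labels give neither the animals' ages nor which libraries came from 1 mouse, and the sort took every CD11b+ cell, so a group is a mixture of myeloid cells rather than 1 cell type.

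Mitochondria keep their own ribosome, which translates the few messages of the mitochondrial genome, nearly all of them subunits of the respiratory chain. Its ribosomal RNAs are made inside the organelle, whereas every one of its proteins is encoded in the nucleus, made in the cytoplasm and imported. Part of these proteins have counterparts in bacterial ribosomes (48 of the 77 genes) and the others exist only in mitochondria (28 of the 77).

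Promoters are shown for 4 genes named below, Mrpl33 and Mrpl52 (called lower in red cells at both times), Mrps30 (called higher over both times) and Mrpl41 (called for a red-green difference that changed with time). The last 2 calls were not stable. Of 16 fits that each left out 1 library, Mrps30 lost its call in 6 and Mrpl41 in 12. Each is the RefSeq window on GRCm38.p6 from 250 bases before to 50 bases after the start of transcription, written in the direction of the gene, for Mrpl33 chr5:31613701-31614000 on the plus strand, for Mrpl52 chr14:54426659-54426958 on the plus strand, for Mrps30 chr13:118387203-118387502 on the minus strand and for Mrpl41 chr2:24975049-24975348 on the minus strand. Capitals mark 3 motifs searched on both strands, the middle of the NRF1 site (GCGCATGC), the ETS core that GABP binds (CCGGAAG) and the start of the YY1 site (AAGATGG), all of factors known to drive nuclear genes for mitochondria.
Mrpl33: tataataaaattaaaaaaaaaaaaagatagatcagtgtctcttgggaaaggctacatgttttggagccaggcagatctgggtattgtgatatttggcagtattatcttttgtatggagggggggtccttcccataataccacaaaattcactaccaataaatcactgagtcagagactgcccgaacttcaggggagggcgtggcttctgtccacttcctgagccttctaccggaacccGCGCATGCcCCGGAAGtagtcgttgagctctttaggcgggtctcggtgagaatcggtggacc
Mrpl52: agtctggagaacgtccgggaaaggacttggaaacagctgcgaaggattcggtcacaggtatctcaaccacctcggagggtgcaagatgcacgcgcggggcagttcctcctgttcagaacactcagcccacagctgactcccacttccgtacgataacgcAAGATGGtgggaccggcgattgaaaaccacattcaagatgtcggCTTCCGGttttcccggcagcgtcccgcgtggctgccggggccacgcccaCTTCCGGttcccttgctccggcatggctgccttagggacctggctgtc
Mrps30: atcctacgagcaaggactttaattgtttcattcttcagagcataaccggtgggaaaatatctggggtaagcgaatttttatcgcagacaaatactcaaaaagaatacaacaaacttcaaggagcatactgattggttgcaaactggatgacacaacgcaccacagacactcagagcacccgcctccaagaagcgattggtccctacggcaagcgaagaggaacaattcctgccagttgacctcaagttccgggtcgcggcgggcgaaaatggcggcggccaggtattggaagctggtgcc
Mrpl41: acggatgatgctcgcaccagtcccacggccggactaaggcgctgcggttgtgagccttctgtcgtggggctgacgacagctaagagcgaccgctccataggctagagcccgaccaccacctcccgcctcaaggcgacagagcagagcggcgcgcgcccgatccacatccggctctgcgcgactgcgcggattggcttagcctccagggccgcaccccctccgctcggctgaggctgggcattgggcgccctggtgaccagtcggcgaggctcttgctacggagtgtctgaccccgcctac
The Mrpl33 window held 1 NRF1 match and 1 ETS match, and the Mrpl52 window 2 ETS matches and 1 YY1 match, while none of these letters occurred in the other two. A window was found for 68 of the 77 genes. The ETS letters were in 35.3% of these 68 windows, against 20.9% of the 7300 windows of tested genes and 9.12% of all 27025. The YY1 letters were in 19.1%, against 7.96% of tested and 6.48% of all genes, and the NRF1 letters in 11.8%, against 6.01% and 2.8%. At least 1 motif occurred in 36 of the 68. These shares are descriptions of the letters in the windows, and binding was not measured.

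Depth differed between the colours. Total counts were 3650937 to 10823666 in green and 3216858 to 15423085 in red libraries, but Rn45s, the precursor of cytoplasmic ribosomal RNA, took 79.0% to 93.4% of green and 55.8% to 84.9% of red counts. Counts outside Rn45s were therefore 468092 to 912689 in green and 758192 to 5472477 in red libraries, and the 77 genes together held only 546 to 1317 counts in green against 1673 to 9899 in red. The median count of a gene of the group was 4 to 12 in green libraries, so single small changes could not be seen at this depth. MG24-4 stood apart, with 17 of the 77 genes at 0 (at most 2 in any other library) and a mean of 0.51 log2 CPM (counts per 1000000 counts of the library, scaled by TMM) over the genes against 1.61 to 1.75 in the other MG24 libraries, and values that rest on it are given without it below.

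Markers showed macrophages and monocytes as the main cells in all groups (Itgam, Adgre1, Csf1r, Ly6c2, Cd68, Fcgr1 and Lyz2, none of the 7 at 0). Summed, with Rn45s left out of the total, they gave 8695 to 11290 CPM in MR72 against 5048 to 9280 in MG24, 5067 to 8585 in MR24 and 5640 to 8094 in MG72. This scale uses no TMM. On it the median log2 fold change of all genes, red against green, was itself 0.92 at 24h and 0.69 at 72h. Sums of other lists moved with colour or time on it. The 5 neutrophil genes summed to 22.6 to 57.5 in green, 52.8 to 87.7 in MR24 and 111 to 137 in MR72, with Retnlg at 0 in every group but MR72. Only 1 of these 5 passed the filter on low counts, and edgeR called it higher in red cells over both times. DESeq2 gave 4 of the 5 an adjusted p at 72h and called 1 higher and 1 lower in red cells. Of all 12519 genes it called 792 higher and 1134 lower there. The 5 genes thus did not all move alike. The 3 endothelial genes summed to 35.4 to 99.9 in green and 129 to 290 in red cells with none at 0. They did not move alike: on the TMM scale edgeR called 2 higher and 1 lower in red cells over both times. The 4 fibroblast genes summed to 72.3 to 149 in MG24, MR24 and MG72 together and 51.8 to 83.2 in MR72, again with none at 0. The 7 genes of dividing cells summed to 392 to 625 in MR24, against 183 to 381 in green cells and 295 to 432 in MR72, none at 0. On the TMM scale edgeR called 0 of these 7 at 24h (median log2 fold change 0.26) and 0 over both times (median -0.35). At 72h it called 1 lower in red cells, and 2 were lower with time in red cells. The 5 dendritic genes summed to 0 to 6.47 in MG24 and 11.9 to 26.7 in MR24, without overlap, and to 0 to 11.8 in MG72 and 5.55 to 29.6 in MR72. T and NK, tumour epithelial and erythroid lists stayed at or below 80.5. Markers at 0 in every library of a group were Xcr1 at 0 in both green groups, Ccr7 and Nkg7 at 0 in MG24, Cd3e, Cd3d, Hbb-bs and Hbb-bt at 0 in MG72, Krt18 and Krt19 at 0 in MG24, MG72 and MR72, Krt8 at 0 in MR24 and MG72, and Epcam at 0 in MG72. Counts outside Rn45s were 468092 to 912689 in green against 758192 to 5472477 in red libraries. A sum of a few CPM in green cells is therefore only a few reads, and a marker at 0 need not be absent. The part of depth in these sums and zeros was not tested, nor was the part of these cells in the results below.

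Levels per length differed widely within the group. The values are CPM after TMM scaling, a correction for libraries in which a few genes take most reads, divided by the transcript length in kilobases and averaged over the 16 libraries. Mrpl52 was highest at 48.6 CPM per kilobase, then Mrpl33 at 30.4 and Mrps18c at 16.8, while the median gene had 2.28. Mrps25 (0.535), Mrpl47 (0.419) and Mrps26 (0.416) were lowest, Mrps25 level with Mrpl19 (0.535), which was lower than it in MG24 (0.323 against 0.556). Mrps18c, Mrpl20 (16.7) and Mrps21 (16.4) were within their spread in every group, whereas Mrpl47 and Mrps26 had like means overall but 0.128 ± 0.045 and 0.573 ± 0.089 (SD, n = 4) in MG72. The highest genes had short annotated transcripts (418 bases for Mrpl52, 478 for Mrpl33 and 638 for Mrps18c, against a median of 1134 over the group), and the lowest had long ones (3364 to 6073 bases), where the annotated length may exceed the length expressed in these cells.

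**Figure D1:**
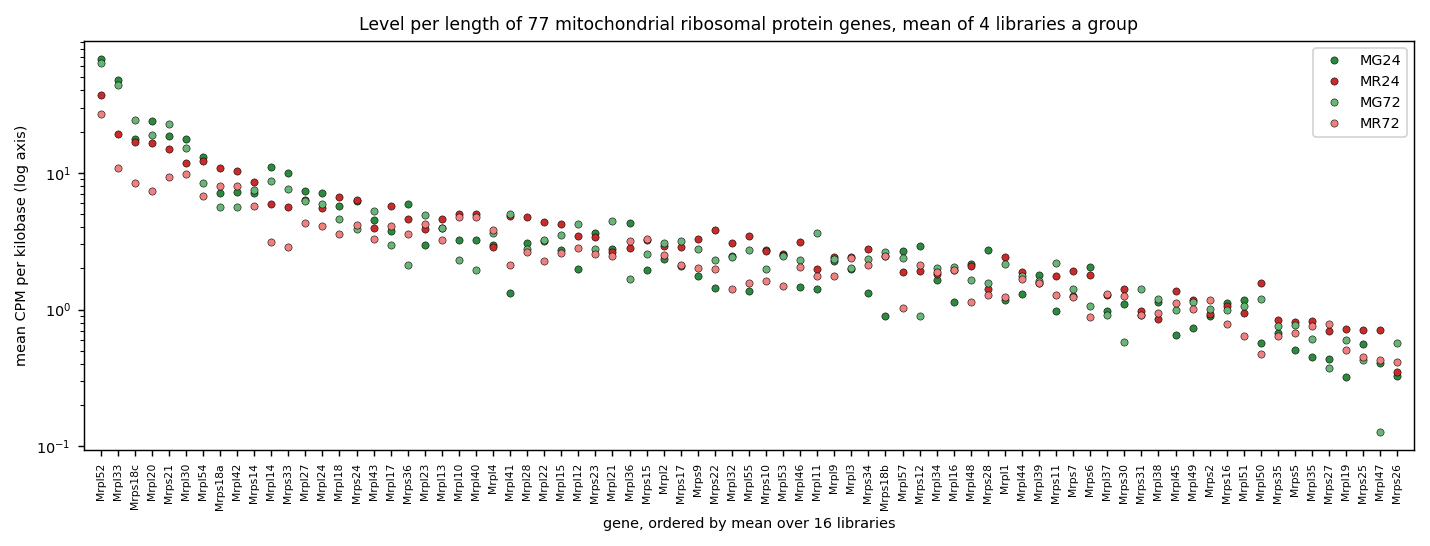
Mean level of each of the 77 genes per group (points, mean of 4 libraries, green for Kaede-green and red for Kaede-red cells, lighter at 72h) in TMM-scaled CPM per kilobase on a log axis, ordered by the mean over 16 libraries. Mrpl52 and Mrpl33 lie at the left, at 48.6 and 30.4 CPM per kilobase, and Mrps26 at the right at 0.416.

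Red against green cells over both times addresses how cells that stayed in the tumour differ from those that had newly entered. Most mitochondrial ribosomal protein genes did not separate the colours: 9 of 77 fell (10.3% of all genes tested were lower) and 2 rose (10% of all genes were higher), and the median log2 fold change was 0.04, against 0.06 over all genes. Without MG24-4 the median of the 77 was -0.07, against 0.05 over all genes. Calls are at an adjusted p under 0.05 in edgeR's quasi-likelihood test. The 9 that fell were Mrpl33, Mrpl14, Mrps33, Mrpl52, Mrpl20, Mrpl57, Mrps18c, Mrps21 and Mrpl30, of which Mrps21 and Mrpl30 lie outside the rule for named genes and were named after their values were seen. In bulk RNA, fewer cells of a type and less RNA per cell cannot be told apart. All these changes are relative to the TMM scale: on total counts alone the median of all genes moved by 2.20 and that of the 77 by 2.17, so that 76 of the 77 rose and Mrpl33 alone, at 0.41, stayed without a call. The Rn45s share of a library moved with colour, and with this share as a covariate edgeR called 0 of the 77 (3 higher and 3 lower at an unadjusted p under 0.05) and 51 higher and 105 lower of all genes.

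Mrpl33, a small protein of the large subunit with a bacterial counterpart (chr5:31596935-31664384 on GRCm38), showed the largest fall. It measured 23.4, 13.5, 33.9 and 20.4 CPM in MG24, 8.26, 5.96, 12.9 and 9.56 in MR24, 20.5, 25.6, 23.4 and 14.6 in MG72, and 3.68, 5.40, 8.47 and 3.03 in MR72. Every red library lay below every green one, the lowest green being 13.5 and the highest red 12.9. The log2 fold change was -1.73 ± 0.21 (SE, 8 libraries against 8, edgeR adjusted p = 2.42e-07), and it was -1.60 to -1.85 whichever library was left out. With the Rn45s share as a covariate it was -0.82 (adjusted p = 0.255). An exon of Mrpl33 overlaps the transcript Gm43809 on the same strand, and how reads there were assigned is not known.

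Mrpl52, a large subunit protein found only in mitochondria (chr14:54426909-54429756), was the highest gene of the group per length and also fell. Its 30.1, 33.2, 30.1 and 19.6 CPM in MG24 compared with 14.4, 15.3, 18.3 and 13.8 in MR24. At 72h it had 25.6, 35.1, 21.4 and 23.4 CPM in green and 8.81, 12.9, 14.97 and 8.07 in red cells. The colours did not overlap at either time, and the log2 fold change was -1.07 ± 0.16 (edgeR adjusted p = 8.82e-06), or -0.79 with the Rn45s share as a covariate (adjusted p = 0.183).

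**Figure D2:**
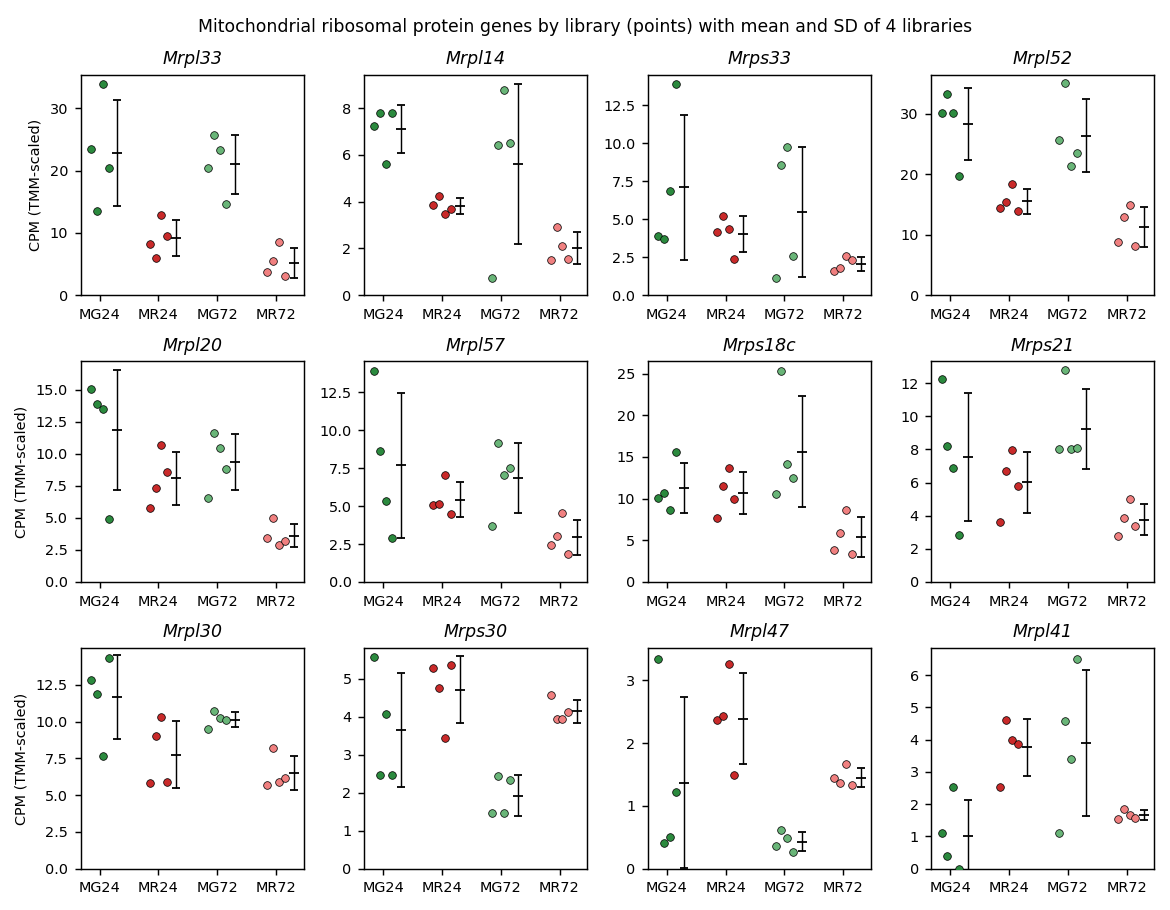
TMM-scaled CPM of the 11 genes called between red and green over both times and of Mrpl41, by group, with 1 point a library and the mean with SD of 4 libraries beside them. Mrpl33 and Mrpl52 separate the colours fully (13.5 CPM is the lowest green and 12.9 the highest red value of Mrpl33), while the other genes overlap; on total counts, without TMM, all 9 genes that fell have values above 0.

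The other 7 that fell overlapped between the colours. Mrpl14, which lies at the face where both subunits meet, had 5.61 to 7.78 CPM in MG24 and 3.45 to 4.26 in MR24, and at 72h 0.731, 6.41, 8.76 and 6.50 in green against 1.49, 2.92, 2.12 and 1.54 in red cells, with a log2 fold change of -1.20 ± 0.27 (edgeR adjusted p = 0.00141). Only MG72-1, at 0.731 CPM, was not above the red libraries, and it lay below all of them. Mrps33 fell by 1.17 on the log2 scale (SE 0.31, adjusted p = 0.00637), from green values that ranged from 1.10 to 13.9 CPM to red values of 1.57 to 5.23. Mrpl20, a bacterial-type protein of the large subunit, changed by -0.96 ± 0.21 (adjusted p = 0.000909). Mrpl57 (-0.88 ± 0.26, adjusted p = 0.0128), Mrps18c (-0.84 ± 0.21, 0.00443), Mrps21 (-0.82 ± 0.23, 0.00969) and Mrpl30 (-0.61 ± 0.18, 0.0150) were the smaller falls. Without MG24-1 the adjusted p of Mrpl57 was 0.054. Without MG24-4, 10 genes fell and the fold of Mrps33 was -0.93, still called. Mrpl14 overlaps Tmem63b, Mrps18c overlaps Gm43511, and Mrps21 shares a near-identical stretch with the processed pseudogene Gm6181, so their counts are less certain.

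The 2 that rose, both of the large subunit, rested on few counts. Mrps30 had 5.58, 2.46, 4.08 and 2.45 CPM in MG24, 5.27, 4.74, 3.45 and 5.36 in MR24, 1.46, 2.44, 1.46 and 2.34 in MG72, and 4.58, 3.93, 3.93 and 4.13 in MR72, a log2 fold change of 0.75 ± 0.25 (edgeR adjusted p = 0.0284). The colours overlapped at 24h and not at 72h. Mrpl47, which lies near the exit of the peptide tunnel, changed by 1.33 ± 0.45 (adjusted p = 0.0329), with 0.410 to 3.35 CPM in MG24, 1.49 to 3.27 in MR24, 0.260 to 0.611 in MG72 and 1.33 to 1.66 in MR72. Mrps30 lost its call without MG24-2, MR24-1, MR24-4, MG72-1, MG72-3 or MR72-1, at a log2 fold change of 0.67 to 0.85 and an adjusted p of up to 0.0679 over all fits that left out 1 library. Mrpl47 lost it without MG24-2, MG24-3, MR24-1, MR24-2, MR24-3, MG72-1, MG72-3, MG72-4, MR72-1 or MR72-2, with an adjusted p of up to 0.0809. Each also lost its call under 6 of the alternatives that kept all libraries, which were the replicate number as a block within time points, thinned red libraries, the Rn45s share as a covariate, offsets for length and GC content, and the block with either of the thinning and the offsets. The values there were 0.64 to 0.74 for Mrps30 (adjusted p of 0.0613 to 0.596) and 0.98 to 1.47 for Mrpl47 (0.0567 to 0.447). Exons of Mrps30 overlap B430218F22Rik and those of Mrpl47 overlap Actl6a and Ndufb5, each on the opposite strand, and the strand setting of the counting is not given in the sources used here.

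Other members had been chosen for their place or role in the ribosome whatever their values, and of these only Mrpl57, Mrps18c and Mrps30 passed the test over both times. Of the stalk, which recruits translation factors, Mrpl10 had a log2 fold change of 0.81 ± 0.33 (adjusted p = 0.0772), Mrpl11 of -0.23 ± 0.42, Mrpl12 of 0.10 ± 0.25 and Mrpl53 of -0.37 ± 0.42. Mrpl45, which ties the ribosome to the inner membrane, had 0.59 ± 0.33, and Mrps12 of the decoding centre 0.27 ± 0.40. The 3 paralogs of bacterial S18 did not move alike in value, at 0.52 ± 0.23 for Mrps18a, 0.82 ± 0.42 for Mrps18b and -0.84 for Mrps18c, the only called one, although the differences between them were not tested. Without MG24-1, Mrps18b was at 1.49 and called (adjusted p = 0.0286), and with offsets for length and GC content Mrps18a (0.73, adjusted p = 0.0287) and Mrpl10 (0.99, adjusted p = 0.0232) were called. Mrps36 had 0.23 ± 0.39. By subunit, 6 of 50 large and 3 of 26 small subunit genes fell (10.3% of all genes were lower). Both that rose were of the large subunit (10% of all genes were higher), and the medians were 0.02 and 0.06. Genes with a bacterial counterpart (6 of 48 lower, 1 higher) and those only in mitochondria (3 of 28 lower, 1 higher) had medians of 0.03 and 0.04.

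Most of the genes that fell had a short transcript and a high level, but short transcripts were common in the whole group. All genes with a known length were put into 5 bins of equal size. In the shortest bin (59 to 1300 bases), 26% of 1855 genes were lower in red cells, and 45 of the 77 lay in it, among them 8 of the 9 that fell. These 8 of 45 were a smaller share than the 26% of all genes. The exception was Mrpl57, with an annotated transcript of 2877 bases. In the next bin (1302 to 2096 bases), 7.49% of all genes were lower and 0 of 15 members, and in the 3 longer bins 4.75% to 6.95% were lower and 1 of 6, 0 of 7 and 0 of 4 members. Both genes that rose had transcripts of 2940 to 4231 bases, where 14.4% of all genes were higher. Across the 77 genes, which are not independent replicates, Spearman's rho between length and log2 fold change was 0.27, against 0.13 across 9272 genes, and between mean log2 CPM and log2 fold change it was -0.35, against -0.15 across all 9642 genes tested. The 6 genes with the highest level per length were all among the 9 that fell. That level is itself divided by the length, and a gene with few counts in green cells is hard to call lower. The falls are therefore not shown to be particular to short or high genes. With offsets for length and GC content in the fit, 5 of the 77 fell (Mrpl33, Mrpl14, Mrpl52, Mrpl57 and Mrpl20). The 4 that rose in that fit, Mrpl10, Mrpl40, Mrpl42 and Mrps18a, were not called without the offsets, and Mrps30 (0.65, adjusted p = 0.0613) and Mrpl47 (1.21, adjusted p = 0.0567) were not called with them. Mrpl40 and Mrpl42 were named after their values were seen.

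**Figure D3:**
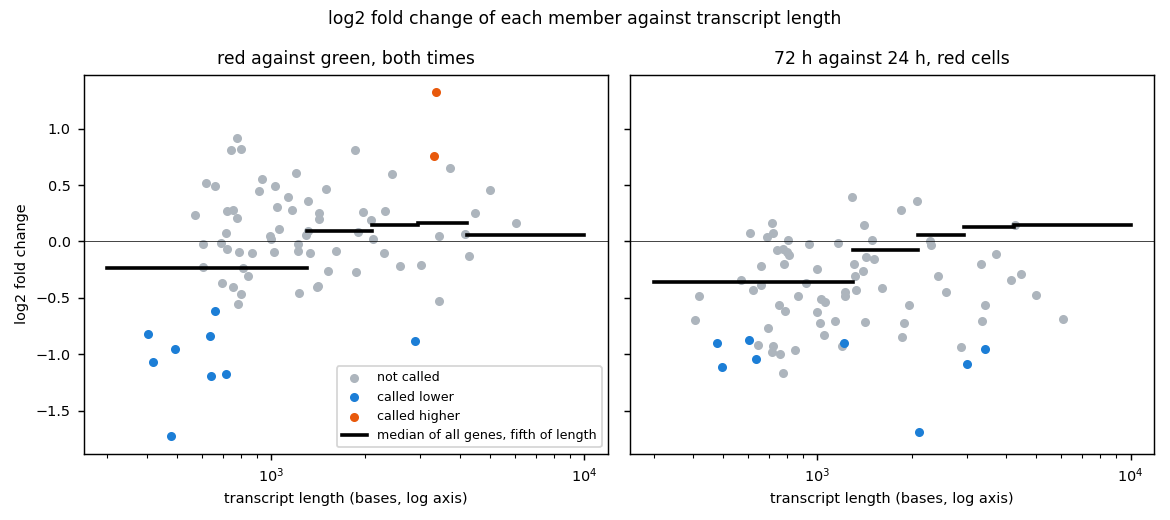
log2 fold change (TMM scale) of each of the 77 genes against transcript length in bases on a log axis, for red against green over both times and for 72h against 24h in red cells, with the genes called in colour; black bars are the medians of all genes in each of 5 bins of length. At the left, 8 of the 9 falls lie in the shortest bin, which holds 45 of the 77 genes and where the median of all genes was -0.24. On total counts the 9 genes that fell have values above 0.

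At 24h, green cells had been in the tumour for a day at most. In edgeR, 2 of 77 fell (4.28% of all genes were lower) and 0 rose (3.22% were higher). At an unadjusted p under 0.05, 12 were higher and 4 lower (1063 and 945 of all 9642 genes). DESeq2 called 2 higher (372 of all 10901 genes with an adjusted p). The median was 0.30, against 0.05 for all genes, and 51 of the 77 lay above 0. The 2 that fell in edgeR were Mrpl33 (-1.35 ± 0.30, adjusted p = 0.00321) and Mrpl52 (-0.88 ± 0.23, adjusted p = 0.0148), whose values per library are given above. Without MG24-4 the median of the 77 was 0.12, against 0.05 over all genes, and the same 2 genes fell. Mrpl52 lost its call without MR24-4 (adjusted p = 0.0522), and 1 or 2 genes rose without MG24-1, MG24-3 or MG72-1. With counts outside Rn45s as library size, 42 of 70 members tested rose, as did 4471 of all 8260 genes (median 0.92). Mrpl52 was at 0.04 there.

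At 72h, 9 of 77 fell (8.76% of all genes were lower) and 1 rose (8.06% were higher), and the median was -0.29 against 0.03 over all genes, with 57 of the 77 below 0. Those that fell were Mrpl33 (-2.11 ± 0.30, adjusted p = 5.97e-06), Mrps18c (-1.60 ± 0.30, adjusted p = 0.000208), Mrpl14 (-1.52 ± 0.38, 0.00448), Mrps33 (-1.49 ± 0.44, 0.0161), Mrpl20 (-1.35 ± 0.29, 0.00123), Mrps21 (-1.33 ± 0.31, 0.00276), Mrpl57 (-1.30 ± 0.36, 0.00946), Mrpl50 (-1.29 ± 0.45, 0.0451) and Mrpl52 (-1.26 ± 0.23, 0.000164). Mrps18c had 10.6, 25.3, 14.1 and 12.5 CPM in MG72 and 3.80, 5.85, 8.62 and 3.31 in MR72, and every red value lay below every green one. The same held for Mrpl20, with 6.58, 11.6, 10.5 and 8.84 against 3.40, 4.97, 2.87 and 3.22 CPM, and for Mrps21, with 8.03 to 12.8 against 2.78 to 4.99. Mrps30 was the 1 gene that rose, by 1.10 ± 0.36 (adjusted p = 0.0296).

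Not all of these calls were stable. Mrpl50 had 3.66, 1.83, 2.19 and 2.34 CPM in green and 1.02, 1.16, 0.907 and 0.884 in red cells at 72h, and it lost its call in 11 of the 16 fits that left out 1 library, with an adjusted p of up to 0.144, those without any of MR24-1 to MR24-4, MG72-1, MG72-3, MG72-4 or MR72-1 to MR72-4. Mrps33 lost it without MG72-2, MG72-3 or MR72-1 (up to 0.158), and Mrps30 without MG72-1, MG72-3, MR72-1, MR72-2 or MR72-4 (up to 0.107). On total counts the falls other than that of Mrpl33 took values of 0.41 to 0.73, none of them called. With the Rn45s share as a covariate edgeR called 0 of the 77 at 24h (7 higher and 1 lower at an unadjusted p under 0.05) and 0 at 72h (2 higher and 4 lower).

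Within red cells, 72h against 24h compares tumour-retained cells collected at 2 times, and most members had lower values at the later one. Of the 77, 8 fell (3.76% of all genes were lower) and 0 rose (4.92% were higher), 65 lay below 0, and the median was -0.45 against -0.01 over all genes. At an unadjusted p under 0.05, 22 were lower and 0 higher in edgeR (1062 and 1151 of all 9642 genes). DESeq2 called 16 lower and 0 higher (588 and 598 of all 8899 genes with an adjusted p). The median of the 77 minus that of all genes was between -0.52 and -0.43 under RLE factors, DESeq2, library totals, totals outside Rn45s and thinned red libraries, -0.36 with the Rn45s share as a covariate and -0.26 with offsets for length and GC content. On library totals the median of the 77 itself was -0.028, and all 8 lost their calls. With the covariate edgeR called 0 of the 77 (0 higher and 14 lower at an unadjusted p under 0.05).

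Among the genes called, the 5 largest falls with time in red cells were Mrpl50, Mrpl20, Mrpl32, Mrps18c and Mrpl1. Mrpl50, a mitochondria-specific protein of the large subunit, had 3.51, 2.19, 4.54 and 2.91 CPM at 24h and 1.02, 1.16, 0.907 and 0.884 at 72h, a log2 fold change of -1.69 ± 0.41 (edgeR adjusted p = 0.00914). The times did not overlap. Mrpl20 had 5.80, 7.30, 10.7 and 8.59 CPM against 3.40, 4.97, 2.87 and 3.22 (-1.12 ± 0.27, adjusted p = 0.0105). Mrpl32, whose maturation by the m-AAA protease of the inner membrane is needed for ribosome assembly, went from 8.87, 8.997, 10.3 and 8.79 to 4.78, 4.62, 3.48 and 4.23 CPM (-1.08 ± 0.25, adjusted p = 0.00650). Mrpl1, the protein of the L1 stalk where spent tRNA leaves, went from 7.47, 8.88, 10.3 and 6.72 to 3.01, 5.19, 4.54 and 4.28 CPM (-0.96 ± 0.31, adjusted p = 0.0485). Mrps18c changed by -1.04 ± 0.28 (0.0206), and its times overlapped, 7.64 to 13.6 against 3.31 to 8.62 CPM. Mrpl33 (-0.90 ± 0.29, adjusted p = 0.0474) and, named after their values were seen, Mrpl18 (-0.90 ± 0.25, 0.0208) and Mrpl54 (-0.87 ± 0.26, 0.0339) made up the 8.

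The count of falls with time depended on single libraries, the median less so. Without MR24-3 only 1 gene fell, without MR72-1 2, without MR72-4 3, and without MR24-1, MR24-2, MR24-4 or MR72-2 5, while 12 fell without MG24-4. The 1 gene that kept its call in every such fit was Mrpl32, at an adjusted p of up to 0.0360, and it had -1.09 (adjusted p = 0.0571) with the Rn45s share as a covariate. The median of the 77 stayed between -0.52 and -0.35 in these 16 fits. With offsets for length and GC content 2 of the 8, Mrpl50 and Mrpl32, kept a call. Of the 8, 5 were in the shortest bin (where 12.1% of all genes were lower), 1 in the third and 2 in the fourth, and the medians of the members in the 5 bins ran from -0.26 to -0.56 whereas those of all genes ran from -0.36 to 0.145. CPM with Rn45s left out of the total, a scale that uses no TMM, gave the 77 together 2443 to 2615 in MR24 and 1542 to 1898 in MR72, with no overlap.

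**Figure D4:**
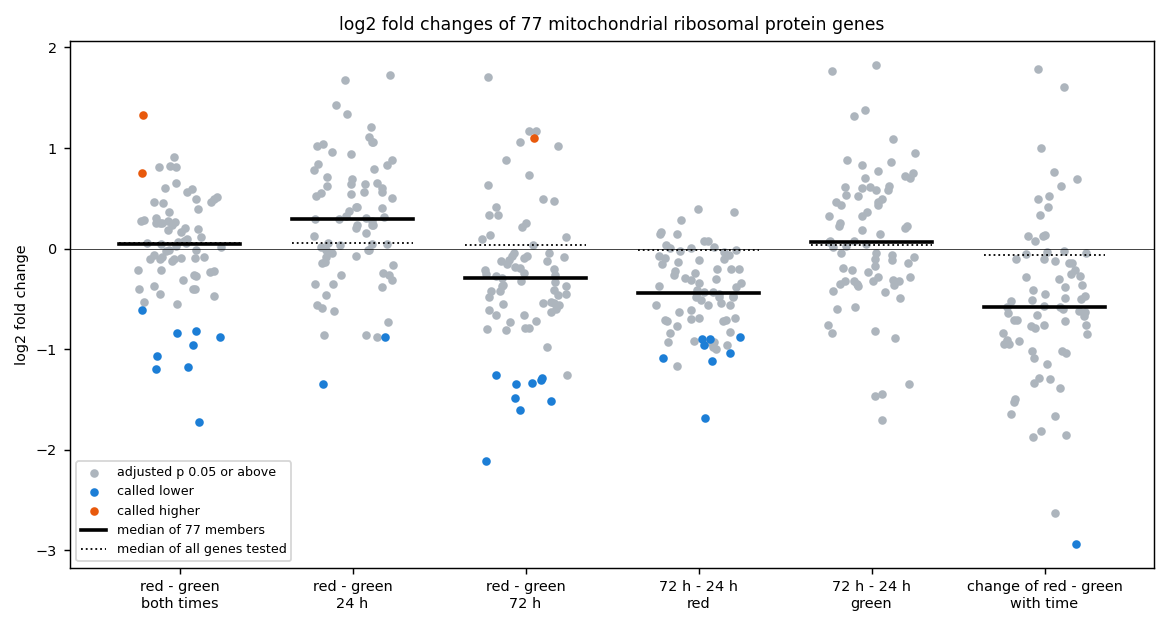
log2 fold changes of the 77 genes (1 point a gene) on the TMM scale in each comparison, with the median of the 77 (solid) and of all genes tested (dotted). The 77 lie around 0 for red against green over both times (median 0.04), shift down for 72h against 24h in red cells (-0.45), and stay around 0 in green cells (0.06); on total counts nearly all red-green values lie above 0.

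In green cells, 72h against 24h gave 0 of 77 genes called in either direction in edgeR (0% of all genes higher and 0% lower), with 4 members higher and 4 lower at an unadjusted p under 0.05 (493 and 342 of all genes), and DESeq2 called 0 members and 3 higher and 11 lower genes in all. The median was 0.06, against 0.03 over all genes, and without MG24-4 it was -0.06, against 0.02 over all genes. The median standard error of a gene was 0.51 on the log2 scale, against 0.37 in red cells, so only large changes could have been called at this depth. With Rn45s left out of the total, the 77 had together 1166 to 1443 CPM in MG24 and 1220 to 1668 in MG72.

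Whether the difference between the colours moved from 24h to 72h was tested as 1 term of the fit, which rests on the same libraries as the 4 comparisons above. It was called for Mrpl41 alone among the 77 (lower for 0.332% and higher for 0.425% of all genes), and 63 of the 77 lay below 0, with a median of -0.58 against -0.07 over all genes. Without MG24-4 these medians were -0.44 and -0.06. Mrpl41, a large subunit protein found only in mitochondria (chr2:24974117-24975098), had 1.11, 0.410, 2.55 and 0 CPM in MG24 and 2.55, 4.62, 3.99 and 3.88 in MR24, then 1.10, 4.58, 3.40 and 6.50 in MG72 and 1.53, 1.87, 1.66 and 1.56 in MR72. The red cells were the higher ones at 24h, apart from MR24-1 and MG24-3 at the same value, and, apart from MG72-1, the lower ones at 72h. The difference of differences was -2.94 ± 0.72 (adjusted p = 0.0482), and neither time passed the test alone (1.67 ± 0.57 at 24h, adjusted p = 0.0672, and -1.26 ± 0.45 at 72h, 0.0502). It rested on 0 to 10 reads in each MG24 library. It lost its call in 12 of the 16 fits without 1 library, all but those without MG24-3, MG24-4, MR24-1 or MG72-1, with a value of -4.28 without MG24-3 and -2.56 without MG24-4, and DESeq2 gave it no adjusted p. With the Rn45s share as a covariate it was -2.95 (adjusted p = 0.0705).

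**Figure D5:**
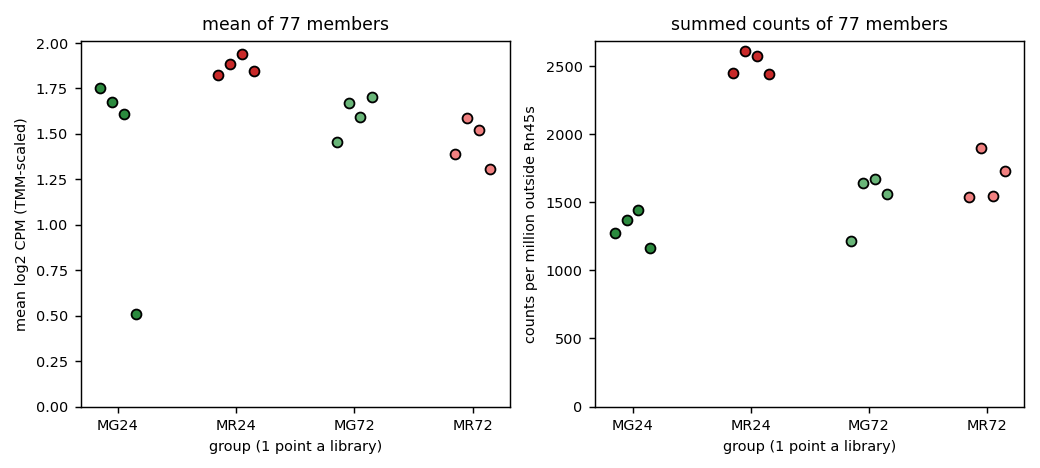
Left, mean log2 CPM (TMM-scaled) of the 77 genes in each library; right, their summed CPM with Rn45s left out of the total, by group with 1 point a library. MG24-4 lies alone at 0.51 on the left but not on the right, where it has 1166 against 1276 to 1443 in the other MG24 libraries. On the right MR24 (2443 to 2615) lies above all other groups, and on the left MR24 (1.82 to 1.94) lies above MG24 (0.51 to 1.75).

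Other lists of mitochondrial gene expression gave 0 to 2 calls each over both times, and the list of import and outer membrane genes gave 7 (of all genes 10.3% were lower and 10% higher). Over both times, edgeR called 0 of 6 ribosomal proteins outside the name pattern (median 0.15; 0 at an unadjusted p under 0.05 and 0 by DESeq2), 0 of 12 mitochondrial translation factors (2 higher unadjusted, 0 by DESeq2) and 0 of 10 genes for transcription of mitochondrial DNA (1 higher and 3 lower unadjusted, 1 lower by DESeq2). Of 15 mitochondrial aminoacyl-tRNA synthetases, Lars2 for leucine fell (-2.52 ± 0.35, adjusted p = 2.47e-06) and Tars2 for threonine rose (1.45 ± 0.38, adjusted p = 0.00622). Leaving Lars2 and Mir6236 out of the library size along with Rn45s moved the median of all genes over both times from 0.82 to 0.24. Whether the Lars2 counts are all reads of its own message was not tested. Of 19 assembly factors Eral1, which chaperones the small ribosomal RNA, rose (1.65 ± 0.49, adjusted p = 0.0152). Of 25 genes of import and the outer membrane 6 fell, among them Tomm7 (-1.23 ± 0.16, adjusted p = 1.11e-06) and Timm8b (-1.10 ± 0.21, adjusted p = 0.000167), and 1 rose, Timm50 (1.18 ± 0.36, adjusted p = 0.0187). With time in red cells, Chchd1, a small subunit protein without an Mrp name, fell by 1.24 on the log2 scale (SE 0.28, adjusted p = 0.00590), as did 4 of the 25 import genes (Hspe1, Timm8b, Tomm20 and Tomm7) against 3.76% of all genes, and Slirp of the transcription list (-1.04 ± 0.30, adjusted p = 0.0281). At 24h, Mrrf, the ribosome recycling factor, was called higher in red cells (adjusted p = 0.0215), and 3 import genes, Tomm22, Tomm6 and Tomm7, were lower. The genes named in these lists were named after their values were seen. The ribosomal RNAs and messages of the mitochondrial genome were not among the genes analysed here.

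Beside the most similar gene groups, fewer genes of the mitochondrial ribosome were called between the colours. Of 82 cytoplasmic ribosomal protein genes 72 were lower in red cells over both times (median -1.01), and of 79 nuclear genes of the respiratory chain and ATP synthase 37 were lower and 1 higher (median -0.49), against 9 of 77 here (median 0.04). These 79 were taken by symbol, beginning with Nduf, Cox4 to Cox8, Uqcr or Atp5, a rule that also admits assembly factors named Ndufaf. Of all genes tested 10.3% were lower and 10% higher. At 24h the counts of lower genes were 59, 11 and 2 (4.28% of all genes), and at 72h 68, 36 and 9 (8.76% of all genes). With time in red cells, 32 of 82 and 15 of 79 fell (medians -0.52 and -0.51), against 8 of 77 (median -0.45) and 3.76% of all genes. The median transcript of these groups was 737 and 680 bases, against 1134 here. Their count levels, on which the number of calls also depends, were not compared, and the differences between the groups were not tested.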

How the data were processed

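The deposited values are whole-number counts of reads per gene for 16 libraries, 1 file each, of SMARTer stranded total RNA libraries made from 5 ng of RNA. The authors trimmed reads with Trim Galore, aligned them with HISAT2 to mm10 and counted them with featureCounts; the counts are not normalized, and versions and the strand setting are not given in the sources used here. All 24421 rows name a gene, and 0 columns were unused. Groups came from the labels, which give 1 batch. The study describes the replicates as tumours of independent mice, while the sources used here do not say which green and red libraries came from 1 tumour.

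Counts were fitted in R 4.3.3 with edgeR 4.0.16 (glmQLFit and glmQLFTest, TMM factors, filterByExpr, 1 mean per group, all 16 libraries), with Benjamini-Hochberg adjustment over 9642 genes. The standard error is the log2 fold change divided by the square root of F. The fit was tested on simulated data. Alternatives included DESeq2 1.42.0, other scalings and filters, leaving out each library, a replicate block and offsets for length and GC content. Positions and lengths are from GENCODE M21 on GRCm38, which gave 23334 of the genes and all 77 members a position, and of tested genes 96.2% a length. The length is that of the basic transcript of median length.

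Members and lists were chosen with earlier results of these data known. Named members were up to 5 largest rises and falls called in each comparison, the 3 highest and 3 lowest per length, and members with a set place in the ribosome. Libraries with the same replicate number were not treated as pairs. Deviations of same-numbered green and red libraries correlated at 0.0493 to 0.153 at 24h and at -0.0183 to 0.0287 at 72h. Such correlations cannot decide whether these libraries came from 1 tumour. The list of B cell markers is not reported here.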

Additional observations from a re-analysis of the deposited data

Results flagged for a closer look

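The gap of 1 library to the others of its group was tested over 28 named genes, the members' mean and their summed counts in the 4 groups, 120 tests in all, of which 8 passed; chance flags about 1 in 20 such groups. In MG24, library MG24-4 was lowest for the mean log2 CPM of the 77 members (0.51 against 1.61 to 1.75), for Mrpl12 (0.818 CPM against 3.06 to 3.35) and for Mrpl20 (4.91 against 13.5 to 15.1), and MG24-3 was highest for Mrpl1 (9.68 against 1.64 to 2.79). In MR24, Mrpl32 was highest in MR24-3 (10.3 against 8.79 to 8.997) and Mrpl53 lowest in MR24-1 (0.966 against 1.94 to 2.07). At 72h, Mrps21 was highest in MG72-2 (12.8 against 8.03 to 8.06) and Mrps25 in MR72-3 (3.93 against 2.22 to 2.43).

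The red-green difference of Mrpl41 changed with time by -2.94 on the log2 scale in edgeR's test of the difference itself (adjusted p = 0.0482), with 0 to 10 reads in each MG24 library.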

How the results depend on the processing

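Counts below are members called higher and lower in red against green over both times (2 and 9 as reported), at 24h (0 and 2), at 72h (1 and 9), in 72h against 24h in red cells (0 and 8) and, as lower, in the change of the red-green difference (1). The scale mattered most. With library size only, 76, 75 and 62 were higher and 0 lower in the 3 red-green comparisons (medians 2.17, 2.61 and 1.67, where the median of all genes was 2.20, 2.33 and 2.04), 0 were lower in red cells with time (median -0.028), 1 was higher in green cells (median 0.77) and 0 changed with time. With counts outside Rn45s as library size, over 70 members, 43, 42 and 11 were higher and 1, 0 and 3 lower (medians 0.83, 1.20 and 0.31), and 3 changed with time. Of all 8260 genes in that fit, 5452, 4471 and 3263 were higher and 228, 77 and 301 lower (medians 0.82, 0.92 and 0.69). With Lars2 and Mir6236 also left out of the size, an alternative chosen after seeing the data, 8, 6 and 2 were higher, 1 lower at 24h and 2 changed with time. Of all 7984 genes in that fit, 1821, 722 and 1312 were higher, and 249 were lower at 24h. With the Rn45s share as a covariate 0 were called in these comparisons. TMM without Rn45s gave 1 higher over both times.

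On library size only, the red-green folds that reversed were, over both times, Mrpl30 1.53, Mrpl52 1.05, Mrpl57 1.21, Mrpl14 0.92, Mrps21 1.31, Mrpl20 1.14, Mrpl33 0.41, Mrps18c 1.29, Mrps33 1.14, Mrpl11 1.89, Mrpl53 1.68 and Mrps26 1.92. At 24h they were Mrpl52 1.38 and Mrpl33 0.92, and at 72h Mrpl52 0.73, Mrpl57 0.63, Mrpl14 0.42, Mrps21 0.71, Mrpl50 0.71, Mrpl20 0.66, Mrps18c 0.41 and Mrps33 0.68. Outside Rn45s they were Mrpl30 0.15, Mrpl11 0.55, Mrpl53 0.41, Mrps26 0.66 and, at 24h, Mrpl52 0.0396. Mrps26, uncalled at -0.13, was 0.0905 with Lars2 and Mir6236 also left out, 0.11 with thinned red libraries and 0.0647 with these and the block.

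DESeq2 called 2 higher at 24h, 16 lower in red cells with time and 3 in the change with time. Of all genes it called 372 of 10901, 588 of 8899 and, as lower, 118 of 4052 in these. Fits of only the groups compared gave 2 higher at 72h (871 of all 8965 genes) and 18 lower in red cells (714 of all 10080). Without a filter 4, 1 and 2 were higher, 5 lower in red cells and 2 changed with time. A minimum of 10 counts in every library left 5 members, of which 5, 5 and 4 were lower over both times, at 72h and in red cells with time and 0 higher (medians -0.88, -1.34 and -0.98, and -0.48 at 24h). Thinned red libraries gave 0 higher over both times and at 72h, 5 lower in red cells and 0 in the change with time. Offsets for length and GC content gave 4, 1 and 4 higher (over both times neither Mrps30 nor Mrpl47 among them), 5 lower over both times and at 72h, and 2 lower in red cells. Without members that overlap another gene, 0 were higher over both times and at 72h, 1 lower at 24h and 5 lower in red cells. The cause of these differences was not tested.

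Whether the replicate numbers pair the samples is not known. A replicate block gave 0 in the change with time. A block within time points gave 1, 1 and 0 higher and 3 in the change with time, with offsets for length and GC content 4, 1 and 2 higher and 4 lower over both times and at 72h, and with thinned red libraries 0 higher over both times and at 72h and 2 in the change with time. Of 8 same-numbered pairs, 2 of the green libraries correlated best with the red library of their number.

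Leaving out 1 library gave 0 to 3 higher and 8 to 10 lower over both times, 0 to 2 higher and 1 to 2 lower at 24h, 0 to 1 higher and 7 to 11 lower at 72h, 1 to 12 lower in red cells with time and 0 to 2 in the change with time. Reversed folds in these fits were those of Mrpl12 without MG24-4 or MG72-2 (-0.0633 to 0.165 over all such fits) and of Mrps26 without MG24-2 (-0.339 to 0.19). Counts of 4 to 12 for a median member in green libraries limited what could be called.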
